A study of Mus musculus with 8 samples.

Results

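The genes described here are the apolipoprotein E cluster and the genes around it that move cholesterol out of macrophages. They are 10 of the 23354 gene symbols in the tables and were chosen by name: the cluster genes Apoe, Apoc1, Apoc2 and Apoc4, the efflux transporters Abca1 and Abcg1, the lipase Lpl, the liver X receptors Nr1h3 and Nr1h2, and Mylip. A gene was tested if it reached 1 FPKM (fragments scaled to transcript length and to the size of the library) in at least 2 libraries, which 10934 symbols did. 9 of the 10 genes were tested, and Apoc4 stayed below the limit. The series compared macrophages with a floxed Ern1 gene (Ern1f/f) and macrophages that also carry Cre recombinase driven by the myeloid gene Lyz2 (Ern1f/fLyz2-Cre), each without treatment or with IL-4. Ern1 encodes IRE1α, a sensor of endoplasmic reticulum stress, and IL-4 is the cytokine used to induce alternative activation.

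All 4 groups came from bone marrow of male mice aged 8 weeks, labelled C57BL/6J, grown for 7 days in L929-conditioned medium. IL-4 was given at 20 ng/ml for 24 hours. The floxed allele is shared by every group, so there was no group with an unmodified Ern1 gene and none with Cre alone. Each group had 2 libraries, numbered 1 and 2 in the titles, and the labels do not say whether they came from separate mice or cultures. The p-values below therefore measure the spread between these libraries, which may be technical. Groups were taken from the titles. A separate genotype entry in the labels follows the replicate number instead, with Ern1f/f for number 1 and Ern1f/fLyz2-Cre for number 2, and so contradicts the title in 4 of the 8 libraries.

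Between 10185 and 10729 symbols reached 1 FPKM per library, and read totals were not given. Ern1 itself stood at 9.11 to 11.5 FPKM in libraries titled Ern1f/f and at 7.43 to 14.3 FPKM in those titled Ern1f/fLyz2-Cre, with overlapping ranges. The labels do not say which exons are floxed, and a gene-level value does not test the loss of some exons. Lyz2 in the Cre libraries was 60.4% of the Ern1f/f value in control cells and 64.9% with IL-4 among libraries numbered 1, and 12.5% and 13.1% among those numbered 2. Within each number and treatment Lyz2 was thus lower in the library titled Ern1f/fLyz2-Cre, a split that follows the titles and not the genotype entry. Arg1, a marker of alternative activation, was at most 1.15 FPKM in control libraries and at least 62.3 FPKM with IL-4. All 8 macrophage markers examined were expressed, among them Csf1r at 356 to 870 FPKM and Cd68 at 669 to 1001 FPKM. Hepatocyte markers, relevant because liver is the main source of plasma apolipoproteins, summed to at most 0.557 FPKM. Of the adipocyte markers, Lep was listed at 0 in all 8 libraries and Adipoq reached 0.769 FPKM, while Fabp4, which macrophages also make, stood at 208 to 388 FPKM.

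Macrophages take up modified lipoproteins and dead cells, and they export the resulting cholesterol through the ATP-driven transporters ABCA1, which loads lipid-poor apolipoproteins, and ABCG1, which loads high-density lipoprotein. Oxysterols formed from surplus cholesterol activate the liver X receptors, LXRα (Nr1h3) and LXRβ (Nr1h2), which bind DNA with a retinoid X receptor. Their known target genes in macrophages include Abca1, Abcg1, Apoe, Apoc1, Apoc2, Apoc4, Lpl and Mylip.

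The 4 apolipoprotein genes lie side by side on chromosome 7, all on the minus strand (mm10, positions of the deposited tables). Apoc2 occupies chr7:19671579-19676864, Apoc4 chr7:19678084-19681460, Apoc1 chr7:19689481-19692658 and Apoe chr7:19696244-19699166, a span of 27588 bases in all. The gaps between neighbours are 1219, 8020 and 3585 bases. In GENCODE release M21, Apoc2 begins further upstream than in the tables, at position 19677941, and a protein-coding model, Gm44805, overlaps both Apoc2 and Apoc4. The annotation behind the deposited values is not given, and whether this overlap affected the value of either gene was not tested. The other members lie elsewhere: Abca1 at chr4:53030789-53159895, Abcg1 at chr17:31057694-31117981, Lpl at chr8:68880555-68906932, Nr1h3 at chr2:91184061-91195116, Nr1h2 at chr7:44549633-44553923 and Mylip at chr13:45389742-45411940.

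RefSeq promoter windows (GRCm38.p6, 250 bases before to 50 bases after a start site) were listed for 7 of the 10 members, 10 windows in all, with 3 start sites for Apoe. The 250 bases before the start are shown for 5 genes: Apoc2, which differed most with IL-4, Apoc4, its neighbour with almost no RNA, the first listed start of Apoe, the most abundant member, and Abca1 and Mylip, LXR targets outside the cluster. Each is written 5′ to 3′ on the gene's own strand. Capitals mark AGGTCA, the half-site bound by nuclear receptors of the LXR class.
Apoc2, chr7:19677942-19678191, minus strand: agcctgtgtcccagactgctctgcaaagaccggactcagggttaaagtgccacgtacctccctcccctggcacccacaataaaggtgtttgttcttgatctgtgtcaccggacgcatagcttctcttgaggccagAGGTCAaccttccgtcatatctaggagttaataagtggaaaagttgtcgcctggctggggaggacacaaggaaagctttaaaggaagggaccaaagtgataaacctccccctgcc
Apoc4, chr7:19681461-19681710, minus strand: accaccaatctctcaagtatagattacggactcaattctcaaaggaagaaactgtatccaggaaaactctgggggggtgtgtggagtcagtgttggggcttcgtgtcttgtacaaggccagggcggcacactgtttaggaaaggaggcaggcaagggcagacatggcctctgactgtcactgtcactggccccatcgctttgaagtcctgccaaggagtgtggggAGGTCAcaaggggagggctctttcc
Apoe, chr7:19699189-19699438, minus strand: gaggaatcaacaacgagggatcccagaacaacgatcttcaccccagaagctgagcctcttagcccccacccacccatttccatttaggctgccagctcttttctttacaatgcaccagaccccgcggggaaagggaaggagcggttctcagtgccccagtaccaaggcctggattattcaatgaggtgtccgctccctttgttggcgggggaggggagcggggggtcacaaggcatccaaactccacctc
Abca1, chr4:53159896-53160145, minus strand: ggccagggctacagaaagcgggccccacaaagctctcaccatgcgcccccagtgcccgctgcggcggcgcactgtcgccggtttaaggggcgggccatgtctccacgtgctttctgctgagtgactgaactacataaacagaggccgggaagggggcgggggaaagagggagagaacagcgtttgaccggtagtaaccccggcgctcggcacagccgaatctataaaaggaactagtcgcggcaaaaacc
Mylip, chr13:45389492-45389741, plus strand: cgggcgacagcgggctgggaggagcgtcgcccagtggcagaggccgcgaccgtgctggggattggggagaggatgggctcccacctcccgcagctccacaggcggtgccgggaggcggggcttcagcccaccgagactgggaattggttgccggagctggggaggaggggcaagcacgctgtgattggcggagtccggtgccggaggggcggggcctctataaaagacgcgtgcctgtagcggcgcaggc

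The half-site was found on the gene's own strand in the windows of Apoc2, at -115 and again at 42 from the start, and of Apoc4, at -25, and in no other member's window. Of 32851 windows of the same length over all genes, 16.3% hold this half-site on either strand. The full LXR element as searched, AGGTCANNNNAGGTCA, was in no member's window and in 0.0152% of all windows. Neither TTCNNNNGAA, the spacing preferred by the IL-4-activated factor STAT6, nor TTCNNNGAA, the general STAT spacing, was in a member's window (6.95% and 8.3% of all windows), and the same holds for TGACGTGG, a site of the IRE1α-dependent factor XBP1 (0.676%). These are exact letter matches in short windows, and known LXR elements of several of these genes lie outside such windows or differ from these letters.

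Levels were compared between genes as FPKM, that is per transcript length. Apoe was the highest member in all 8 libraries and ranked between 2nd and 23rd among all genes, with 0.48% to 3.815% of the summed FPKM. Lpl came next in all 8, at 416 to 1048 FPKM. Abcg1, Nr1h3, Apoc2 and Nr1h2 followed with overlapping ranges, and neighbours in this order swapped places: Abcg1 was above Nr1h3 in 4 of 8 libraries and Apoc2 above Nr1h2 in 4 of 8. Abca1, at 9.08 to 38.0 FPKM, overlapped with the ranges of Nr1h2, Nr1h3 and Apoc2, and Nr1h2 was above it in 6 of 8 libraries. Abca1 was above Mylip, Mylip above Apoc1, and Apoc1 above Apoc4 in 8 of 8.

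**Figure D1:**
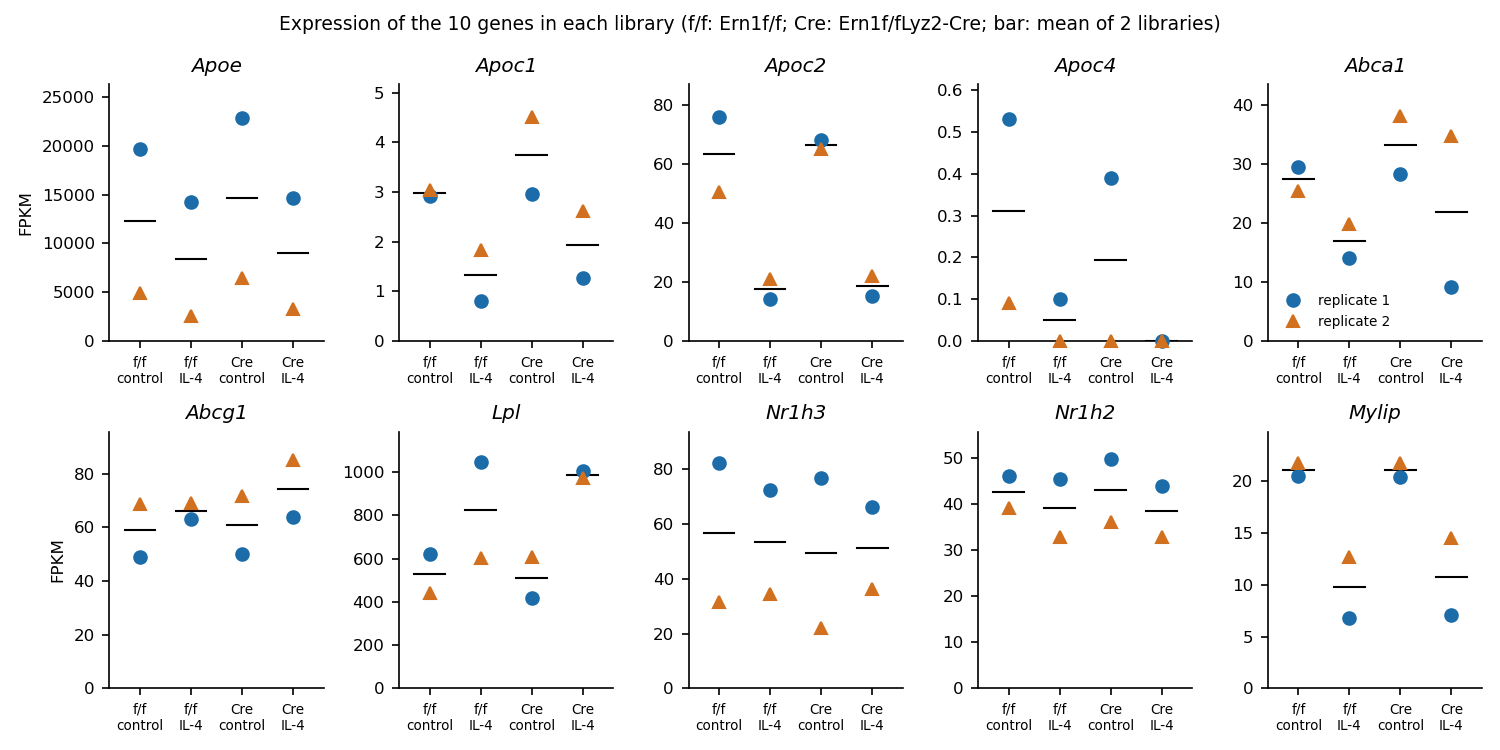
FPKM (linear axis from 0, one scale per gene) of the 10 genes in the 4 groups; circles are libraries numbered 1, triangles those numbered 2, and bars the mean of the 2 libraries. Apoc1, Apoc2 and Mylip separate IL-4 from control libraries, whereas Apoe, Nr1h3, Nr1h2 and Abcg1 separate the replicate numbers.

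Apoe encodes the apolipoprotein that macrophages secrete to carry away cholesterol. In control cells Apoe stood at 19710 and 4904 FPKM (replicates 1 and 2) in Ern1f/f and at 22860 and 6486 FPKM in Ern1f/fLyz2-Cre. With IL-4 it stood at 14200 and 2558 FPKM in Ern1f/f and at 14690 and 3320 FPKM in Ern1f/fLyz2-Cre. The control and IL-4 libraries overlapped, but within each replicate number every IL-4 library was below its control, by 1.39 and 1.92 times in Ern1f/f and by 1.56 and 1.95 times in Ern1f/fLyz2-Cre. Averaged over genotypes the log2 difference of FPKM + 1 was -0.75 ± 0.87 (SE), which was not past the threshold in limma (adjusted p = 0.793). With the replicate number as a block, which compares libraries of the same number, the same difference had an SE of 0.12 and passed (adjusted p = 0.0122). That call was lost (adjusted p up to 0.0662) when any 1 of the 2 Ern1f/f control or the 2 Ern1f/fLyz2-Cre IL-4 libraries was left out. In bulk RNA, fewer cells that make a transcript and less of it per cell cannot be told apart, here and for every gene below.

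Apoc2 encodes apolipoprotein C-II, the cofactor without which lipoprotein lipase does not work, and it was the member that differed most. Its control libraries held 76.0 and 50.6 FPKM in Ern1f/f and 68.3 and 65.0 FPKM in Ern1f/fLyz2-Cre. The IL-4 libraries held 14.1 and 21.2 FPKM in Ern1f/f and 15.2 and 21.9 FPKM in Ern1f/fLyz2-Cre. All 4 IL-4 libraries were thus below all 4 control libraries, by 2.39 to 5.39 times within pairs. Apoc2 fell by 1.80 ± 0.21 (SE) on the log2 scale averaged over genotypes (95% interval -2.30 to -1.29; limma, adjusted p = 0.023), and with the block the SE was 0.19 (adjusted p = 0.00373). Without the block this call was lost whichever of the 8 libraries was left out (adjusted p 0.0576 to 0.116), while with the block it held in all 8 such fits (0.00609 to 0.0312).

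Apoc1, whose small protein inhibits lipid transfer and lipase activity, was scarce. It stood at 2.93 and 3.04 FPKM in Ern1f/f control, 2.97 and 4.51 FPKM in Ern1f/fLyz2-Cre control, 0.81 and 1.83 FPKM in Ern1f/f with IL-4, and 1.26 and 2.62 FPKM in Ern1f/fLyz2-Cre with IL-4. The highest IL-4 library lay just below the lowest control library. The width of the authors' intervals implies only 3 to 23 fragments per library, with an interval as wide as 110% of the value on either side. The log2 difference was -0.76 ± 0.23 (SE) without the block (limma, adjusted p = 0.226), and Apoc1 passed only with it (SE 0.13, adjusted p = 0.0139), a call lost when either IL-4 library numbered 1 was left out (adjusted p up to 0.0708).

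Apoc4, the remaining gene of the cluster, had nearly no signal. The tables list 0.531 and 0.0921 FPKM in Ern1f/f control, 0.389 FPKM and 0 in Ern1f/fLyz2-Cre control, 0.1 FPKM and 0 in Ern1f/f with IL-4, and 0 in both Ern1f/fLyz2-Cre libraries with IL-4. The intervals imply 10 fragments in the 4 control libraries together and 1 in the 4 IL-4 libraries, too few to compare the groups. It was listed at 0 in 4 of 8 libraries. Its promoter window, like that of Apoc2, holds the AGGTCA half-site, found in 16.3% of all windows. A link between this site and the level of a gene was not tested.

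Lpl encodes lipoprotein lipase, which releases fatty acids from triglyceride-rich particles with apolipoprotein C-II as cofactor. It stood at 621 and 440 FPKM in Ern1f/f control and at 416 and 606 FPKM in Ern1f/fLyz2-Cre control. With IL-4 it stood at 1048 and 604 FPKM in Ern1f/f and at 1005 and 974 FPKM in Ern1f/fLyz2-Cre. Each IL-4 library was above its paired control, by 1.37 to 2.41 times, though the Ern1f/f IL-4 library numbered 2 lay within the control range. The log2 difference of 0.79 passed neither without the block (SE 0.23, limma, adjusted p = 0.217) nor with it (SE 0.21, adjusted p = 0.0563). With the block it passed when either the Ern1f/f IL-4 or the Ern1f/fLyz2-Cre control library numbered 2 was left out (adjusted p down to 0.0166), and it also passed with groups from the genotype entry (0.0201). The enzyme and its cofactor thus read in opposite directions within every pair.

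Abca1, the transporter that starts high-density lipoprotein formation, stood at 29.5 and 25.3 FPKM in Ern1f/f control and at 28.3 and 38.0 FPKM in Ern1f/fLyz2-Cre control. With IL-4 it stood at 14.0 and 19.8 FPKM in Ern1f/f and at 9.08 and 34.7 FPKM in Ern1f/fLyz2-Cre. It was below its paired control in all 4 pairs, by 2.11 and 3.12 times among libraries numbered 1 and by 1.28 and 1.1 times among those numbered 2. The averaged log2 difference of -0.76 was not past the threshold (SE 0.40 without the block and 0.30 with it, limma, adjusted p = 0.486 and 0.151). Leaving out the Ern1f/fLyz2-Cre IL-4 library numbered 2, the highest IL-4 value, brought Abca1 past the threshold with the block (adjusted p = 0.0304).

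Abcg1, the partner transporter, did not follow Abca1. It stood at 49.0 and 68.8 FPKM in Ern1f/f control, 50.0 and 71.8 FPKM in Ern1f/fLyz2-Cre control, 63.1 and 69.0 FPKM in Ern1f/f with IL-4, and 63.7 and 85.1 FPKM in Ern1f/fLyz2-Cre with IL-4. IL-4 libraries read higher in all 4 pairs, but in Ern1f/f libraries numbered 2 the 2 values lie within each other's intervals (67.7 to 70.0 and 67.8 to 70.2 FPKM). The averaged log2 difference was 0.24 and not past the threshold (SE 0.19 without the block and 0.09 with it, limma, adjusted p = 0.666 and 0.146). The ratio of Abcg1 to Abca1, both per transcript length, was 1.66 to 2.72 in control libraries and 2.46 to 7.01 with IL-4.

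Of the receptors, Nr1h3 (LXRα), the form enriched in macrophages and liver, stood at 82.1 and 31.4 FPKM in Ern1f/f control and at 76.9 and 21.9 FPKM in Ern1f/fLyz2-Cre control. With IL-4 it stood at 72.4 and 34.4 FPKM and at 66.2 and 36.3 FPKM. IL-4 libraries read lower than controls among those numbered 1 and higher among those numbered 2, and the averaged log2 difference was 0.11 ± 0.54 (SE; limma, adjusted p = 0.962). Nr1h2 (LXRβ), the broadly expressed form, ranged from 32.9 to 49.8 FPKM over all libraries, with a log2 difference of -0.15 ± 0.18 (SE; adjusted p = 0.809). With the block the 95% interval was -0.25 to 0.48 for Nr1h3 and -0.33 to 0.04 for Nr1h2.

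Mylip encodes IDOL, a ubiquitin ligase that LXR activity induces and that limits lipoprotein uptake. It stood at 20.5 and 21.8 FPKM in Ern1f/f control and at 20.4 and 21.8 FPKM in Ern1f/fLyz2-Cre control. With IL-4 it stood at 6.80 and 12.7 FPKM in Ern1f/f and at 7.05 and 14.5 FPKM in Ern1f/fLyz2-Cre. All IL-4 libraries were below all control libraries, by 2.89 and 3.01 times among libraries numbered 1 and by 1.50 and 1.72 times among those numbered 2. The log2 difference of -1.04 ± 0.27 (SE) was not past the threshold (limma, adjusted p = 0.177), and with the block Mylip passed (SE 0.17, adjusted p = 0.0131). Leaving out Ern1f/f control or Ern1f/fLyz2-Cre IL-4 numbered 1 ended that call (adjusted p up to 0.0611).

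**Figure D2:**
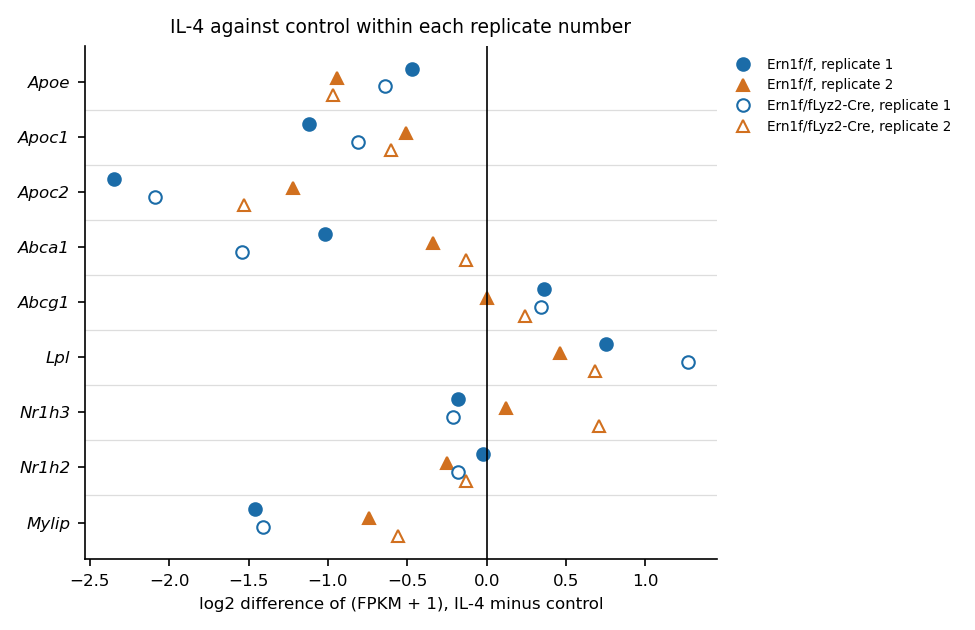
Log2 difference of FPKM + 1 between IL-4 and control within each replicate number for the 9 tested genes; filled symbols are Ern1f/f, open symbols Ern1f/fLyz2-Cre, circles number 1 and triangles number 2. Symbols of 6 genes lie left of 0 and those of Lpl and Abcg1 right of 0 (Abcg1 in Ern1f/f number 2 at 0.00 after rounding), and Nr1h3 falls on both sides by number.

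**Figure D3:**
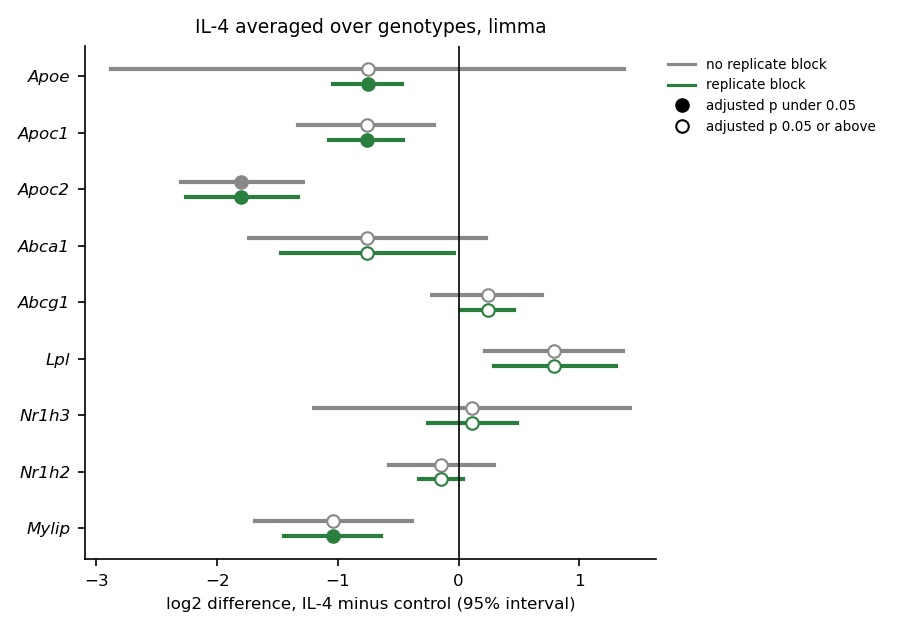
Averaged IL-4 difference (log2) of each tested gene with its 95% interval from limma, without (grey) and with (green) the replicate block; filled points have an adjusted p under 0.05. The estimates are the same in both fits, and the interval of Apoe narrows from -2.88 to 1.37 down to -1.04 to -0.47.

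Counted together, 1 of the 9 tested members (Apoc2) was called for IL-4 averaged over genotypes without the block, where 0.841% of all tested genes were called, and 4 of 9 (Apoc2, Apoe, Apoc1 and Mylip, all lower) with the block, where 12.7% were. The median difference of the 9 was -0.75 against -0.03 over all tested genes. 6 members were lower with IL-4 in all 4 pairs, against 23.5% of all genes, and 2 were higher in all 4, against 17.0%. The 6 include Nr1h2, at 45.4 FPKM with IL-4 against 46.2 FPKM in Ern1f/f numbered 1, and Apoc1, with 3 to 23 fragments per library. The 2 include Abcg1, at 69.0 FPKM against 68.8 FPKM in Ern1f/f numbered 2. The members were chosen with earlier results of these data known, so setting them against all genes is a description and not a test. Within a single genotype no member was called without the block (3 of 9 at an unadjusted p under 0.05 in each genotype, against 6.16% of all genes in Ern1f/f and 8.53% in Ern1f/fLyz2-Cre). The share of all genes called there was 0.0% in Ern1f/f and 0.0549% in Ern1f/fLyz2-Cre. With the block Apoc2 was the 1 member called in each genotype, by -1.78 in Ern1f/f (adjusted p = 0.0318; 2.12% of all genes called) and by -1.81 in Ern1f/fLyz2-Cre (adjusted p = 0.0267; 3.32%). These calls were lost in 6 of 8 fits with 1 library left out in Ern1f/f (adjusted p up to 0.189), when any Ern1f/f library or either Ern1f/fLyz2-Cre IL-4 library was missing. In Ern1f/fLyz2-Cre they were lost in 4 of 8 (up to 0.206), when any Ern1f/fLyz2-Cre library was missing.

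Summed levels of some cell type markers were also lower with IL-4 in all 4 pairs. The 6 fibroblast and stromal markers summed to 142 FPKM in control and 65.8 FPKM with IL-4 in Ern1f/f numbered 1, and to 398 and 171 FPKM in Ern1f/fLyz2-Cre numbered 1. Among libraries numbered 2 the same sums were 5.53 and 4.59 FPKM, and 1.54 and 1.12 FPKM. The mean log2 differences with IL-4 among libraries numbered 1 and 2 were -2.22 and -1.37 for Apoc2 and -1.44 and -0.65 for Mylip. They were -0.97 and -0.56 for Apoc1, and for Apoe, the other way, -0.56 and -0.95. The 8 macrophage markers, dominated by Lyz2, summed to 4381 to 21020 FPKM in control and 4108 to 14210 FPKM with IL-4, and without Lyz2 to 2210 to 2902 FPKM and 2245 to 2536 FPKM, with 1 pair higher. The 4 T cell markers, of which only Cd4 was tested, summed to 1.7 to 9.33 FPKM in control and 0.964 to 2.71 FPKM with IL-4. Dendritic cell markers, all too low to be tested, went the other way and were higher with IL-4 in all 4 pairs. They summed to 0.389 to 0.585 FPKM in control and 0.783 to 1.24 FPKM with IL-4. Sums of monocyte, neutrophil, adipocyte, hepatocyte and B cell markers were higher in some pairs and lower in others. The part of these marker differences in the lower Apoe, Apoc1, Apoc2 and Mylip was not tested.

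The comparison of genotypes asks whether these genes differ between libraries titled Ern1f/fLyz2-Cre and those titled Ern1f/f. Loss of Ern1 itself was not shown by its gene-level values, which overlapped. No member was called by limma in control cells, in IL-4-treated cells or averaged over treatments, with or without the block, and none had an unadjusted p under 0.05. The shares of all genes under that unadjusted p were 0.247%, 0.384% and 0.476% without the block, in the same order. With the block they were 1.25%, 1.73% and 2.04%. Having no such member therefore does not set these genes apart or show that genotype made no difference. Of all genes 0.0% were called in these fits, apart from 0.00915% for IL-4-treated cells with the block. Apoe was higher in the libraries titled Ern1f/fLyz2-Cre in all 4 pairs, by 1.16, 1.32, 1.03 and 1.3 times (control numbered 1 and 2, then IL-4 numbered 1 and 2), and its averaged log2 difference was 0.26 with a 95% interval of -1.86 to 2.39, or -0.02 to 0.55 with the block. Apoc1 and Abcg1 were also higher in 4 of 4 pairs, by 1.02 to 1.56 and 1.01 to 1.23 times, so that 3 of 9 members showed this direction, against 6.55% of all genes. For Apoc1, which rests on 3 to 23 fragments per library, the blocked interval was -0.02 to 0.59. Abca1 and Lpl showed no such order: both were lower in Ern1f/fLyz2-Cre among libraries numbered 1 and higher among those numbered 2.

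The interaction, the IL-4 difference in Ern1f/fLyz2-Cre minus that in Ern1f/f, was called for no member with or without the block (limma, 0.0% of all genes called). No member had an unadjusted p under 0.05, and of all genes only 0.174% did without the block and 0.942% with it. The absence of such members is thus no result about these genes. For Apoc2 it was -0.03 (95% interval -1.04 to 0.99, and -0.96 to 0.90 with the block), for Mylip 0.12 (-0.70 to 0.93 with the block) and for Abca1 -0.15 (-1.58 to 1.28 with the block). A difference between genotypes of the size of the Abca1 interval would not have been detected.

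The replicate number separated some members more widely than IL-4 or genotype. Apoe was 4.02, 5.55, 3.52 and 4.42 times lower in replicate 2 than in replicate 1 (Ern1f/f control, Ern1f/f IL-4, Ern1f/fLyz2-Cre control and Ern1f/fLyz2-Cre IL-4), and its 4 libraries numbered 2 all lay below its 4 numbered 1. It was the only member lower by at least 1 on the log2 scale in all 4 groups, as were 1.25% of all genes. Nr1h3 was 1.82 to 3.51 times lower and Nr1h2 1.18 to 1.38 times lower in replicate 2, while Apoc1, Abcg1 and Mylip were higher in all 4 groups. In all, 6 of 9 members kept a direction over the 4 groups, against 52.2% of all genes. Apoe did not share its direction with its neighbours Apoc1 and Apoc2, since Apoc2 was lower in replicate 2 in the 2 control groups and higher in the 2 IL-4 groups. The balance of the receptors differed too: Nr1h3 exceeded Nr1h2 by 1.51 to 1.78 times in replicate 1, whereas their ratio was 0.604 to 1.10 in replicate 2.

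**Figure D4:**
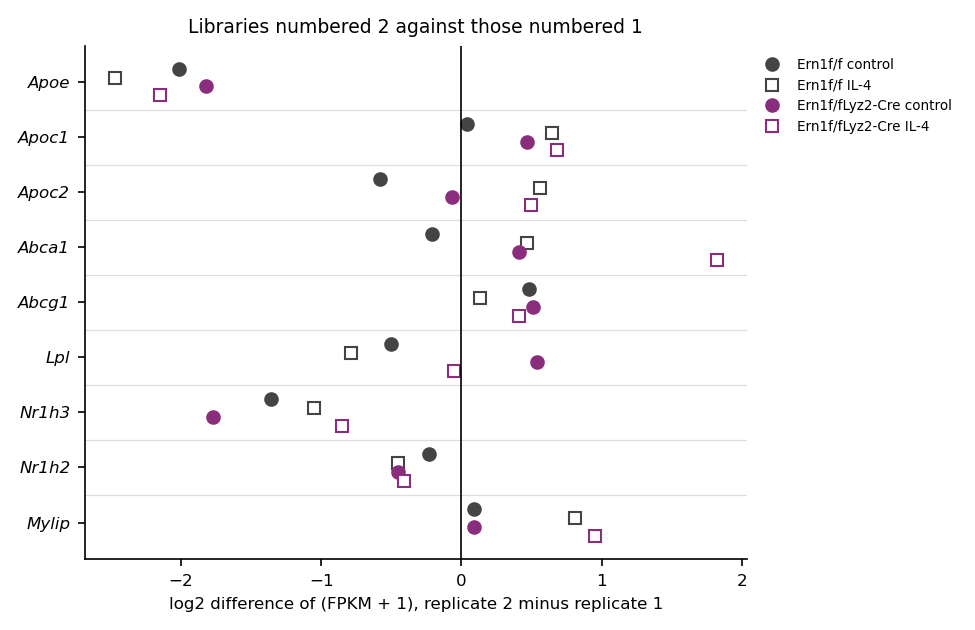
Log2 difference of FPKM + 1 between libraries numbered 2 and 1 for the 9 tested genes, 1 symbol per group (circles control, squares IL-4; grey Ern1f/f, purple Ern1f/fLyz2-Cre). Apoe lies between -2.47 and -1.82 in every group and Nr1h3 between -1.77 and -0.85, while Abca1 reaches 1.82 in Ern1f/fLyz2-Cre with IL-4.

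Markers of other cells also differed between the numbers. The 6 fibroblast and stromal markers (5 of them tested) summed to 65.8 to 398 FPKM in libraries numbered 1, led by Col1a1 and Col1a2, and to 1.12 to 5.53 FPKM in those numbered 2. Their part in the higher Apoe and Nr1h3 of libraries numbered 1 was not tested. If groups are taken from the genotype entry of the labels, this same difference is the genotype difference. The number and the genotype then cannot be told apart, although the Lyz2 values given above split by title and not by that entry. In the fit by the genotype entry, added after the data were seen, Apoe was lower by 2.11 on the log2 scale in the libraries entered as Ern1f/fLyz2-Cre. This was the opposite direction to the titles (limma, adjusted p = 1.92e-05). Under that entry 7 of 9 members were called for genotype averaged over treatments (47.9% of all genes), 4 in control cells (34.9%), 7 with IL-4 (29.9%) and 1, Mylip, for the interaction (0.969%). IL-4 averaged over genotypes then called 6 members (26.7% of all genes), with 5 in Ern1f/f (20.7%) and 3 in Ern1f/fLyz2-Cre (11.6%).

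Around these genes, lists of the pathway were counted for IL-4 averaged over genotypes. Among 17 tested other LXR target genes, 1 was called higher and 2 lower with the block and none without it, with a median difference of 0.10. Of all tested genes 12.7% were called with the block and 0.841% without it. Cd5l, a secreted survival factor of macrophages, fell by 1.25 (adjusted p = 0.00147 with the block, 0.502 without) and Smpdl3a, a secreted phosphodiesterase, fell by 0.61 (0.0077 and 0.0652). Tgm2, a transglutaminase that is also a marker of IL-4 activation, rose by 0.68 (0.0258 and 0.546). The lipogenic targets Fasn, Scd1, Scd2 and Acaca were not among the called genes, which does not show that they were unchanged. Of the 17 tested genes 6 were higher in 4 of 4 pairs and 3 were lower, against 17.0% and 23.5% of all genes. Srebf1, which encodes the lipogenic regulator SREBP1, stood at 15.0 to 24.6 FPKM over all libraries. Cd5l and Tgm2 were chosen for mention after their values were seen.

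Of 11 tested LXR partners, ligand enzymes and PPARs, 2 were called higher and 1 lower with the block and none without it (median -0.12). The share of all genes called with the block was 12.7%. Pparg, the fatty acid receptor induced by IL-4 in macrophages, stood at 11.6 to 30.4 FPKM in control libraries and 26.9 to 63.9 FPKM with IL-4 and rose by 1.17 on the log2 scale (limma, adjusted p = 0.00279 with the block, 0.33 without). Its coactivator gene Ppargc1b rose by 1.11 (0.0147 and 0.0854), while Ppard fell by 0.59 (0.0123 and 0.0886). Among 12 tested uptake receptors, 1 was called higher and 2 lower with the block (12.7% of all genes called) and none without it (median -0.19). The fatty acid and oxidised lipoprotein receptor Cd36 rose by 0.86, with 125 to 202 FPKM in control libraries and 246 to 391 FPKM with IL-4 (adjusted p = 0.0489 with the block, 0.181 without). Sorl1 fell by 1.11 (0.0137 and 0.423) and the scavenger receptor Marco, named after its values were seen, by 1.17 (0.0321 and 0.881).

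Cholesterol synthesis genes controlled by SREBP2 were the list with the most tested genes, 22, and the most calls in 1 direction. With the block 6 of 22 were called higher and none lower (12.7% of all genes called). Without it 1 of 22 was called higher (0.841% of all genes called). Their median was 0.36 against -0.03 for all genes, and 14 were higher in 4 of 4 pairs, against 17.0% of all genes. Dhcr7, the last reductase of the pathway, stood at 14.2 to 15.4 FPKM in control libraries and 24.5 to 29.6 FPKM with IL-4 and rose by 0.80 ± 0.09 (SE; limma, adjusted p = 0.0199 without the block and 0.00292 with it). Nsdhl and Hmgcs1 each rose by 0.55 with the block (adjusted p = 0.0324 and 0.0445, and 0.177 and 0.197 without it), and Idi1, Fdps and Sqle, named after their values were seen, by 0.66, 0.71 and 0.58.

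Cholesterol storage and transport genes gave no call among 17 tested, with or without the block (median -0.10). Among 11 tested lipase partners and lipid release genes the 1 call with the block was Mgll, monoglyceride lipase, named after its values were seen, which fell by 0.49 (adjusted p = 0.0317, and 0.808 without the block). Of 15 genes in the list of other apolipoproteins only 2 were expressed enough to be tested, and the acute-phase apolipoprotein Saa3 fell by 1.16 with the block (adjusted p = 0.0116, 0.689 without). The tested neighbours of the cluster on chromosome 7 gave 2 lower calls of 9 with the block and none without it (median -0.22): Mark4 by -0.35 (adjusted p = 0.0372) and Bcl3 by -0.66 (adjusted p = 0.0378). Over all genes 12.7% were called with the block.

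**Figure D5:**
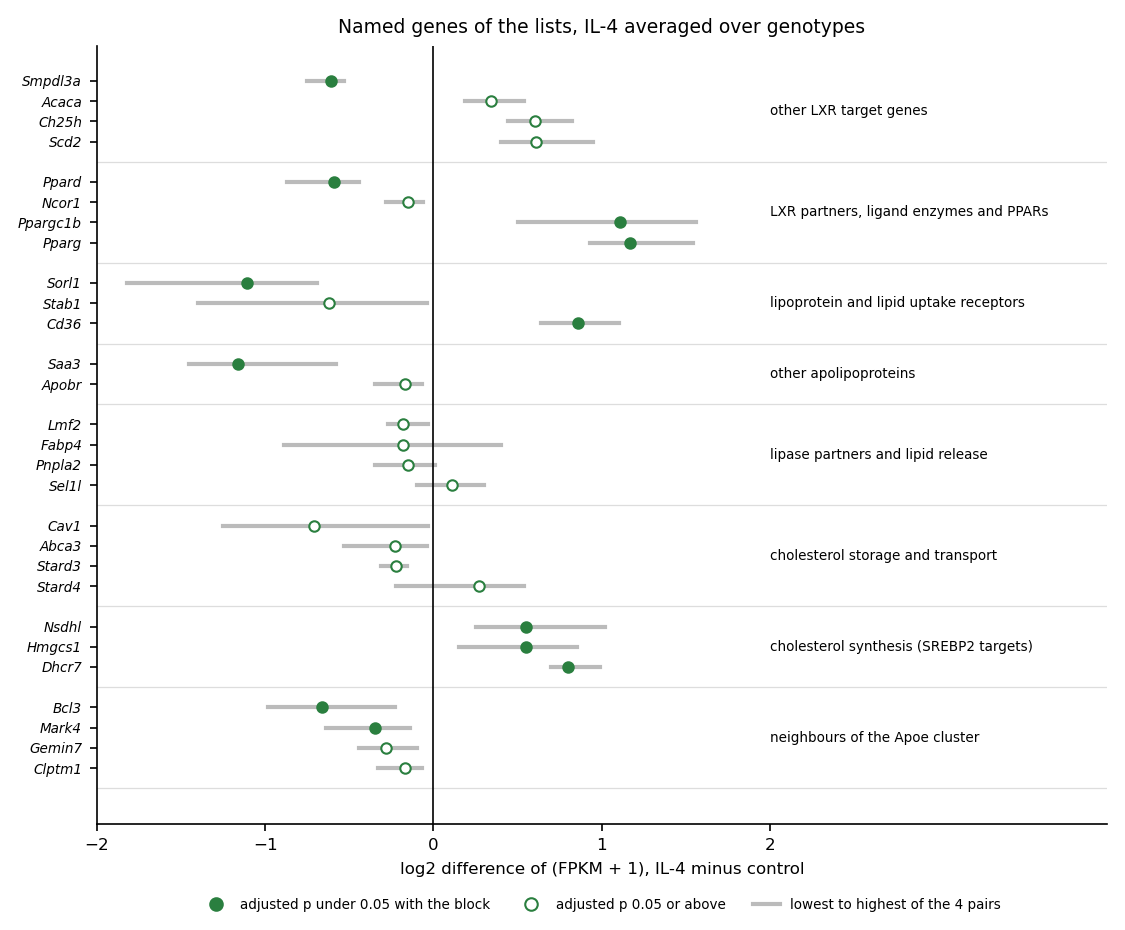
Averaged log2 difference with IL-4 for up to 4 genes of each list, those with the smallest p without the block; points are the means, filled where the adjusted p with the block is under 0.05, and grey bars run from the lowest to the highest of the 4 pairs. The 3 cholesterol synthesis genes shown lie to the right of 0 (0.55 to 0.80), and the 4 neighbours of the cluster to the left (-0.66 to -0.17).

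Genes with the most similar pattern were sought by Pearson's r of log2 values over the 8 libraries, which share the split by replicate number. Closest to Apoe were Pithd1 (r = 0.996), Rab6b (0.994) and Dhrs7 (0.993), and 718 genes had an r over 0.9 with it. Closest to Apoc2 were Rsph9 (0.992), Ubxn7 (0.983) and Plk1s1 (0.98), with 166 genes over 0.9. For Abca1 they were Eps15 (0.981), Inpp4a (0.978) and Bcl9 (0.974), and for Abcg1 Mir22hg (0.982), Tubb2a (0.98) and Camk2a (0.976). Lpl had the fewest such genes, 44, led by Ehd4 (0.963), Ifi30 (0.958) and Fastkd1 (0.957).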

How the data were processed

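Messenger RNA of 8 libraries was sequenced. The deposited tables give FPKM per gene with the authors' confidence bounds, also in FPKM. TopHat 1.4.1, Cufflinks 1.3.0 and mm10 are named per the submitters' processing notes, and the annotation is not given in the sources used here. Each table has 23838 rows, and those sharing 1 of the 23354 symbols were summed.

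Genes reaching 1 FPKM in 2 or more libraries (10934) were analysed on a log2(FPKM + 1) scale. The model had 4 group means from the titles and no block, and used limma (version 3.58.1, R 4.3.3) with a trended prior and two-sided tests. The threshold was an adjusted p of 0.05 (Benjamini-Hochberg, all genes), and the scripts were tested on simulated data. Differences on this scale understate changes of low genes. Libraries were taken as paired by number because replicate 2 minus replicate 1 correlated over genes between the groups (r = 0.69 to 0.83, 6 pairs of groups). This pairing comes from the data alone. Fragments were implied from the bounds, taken as 2 standard errors, and cover counting error only.

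All 10 members are described. From each list up to 4 genes with the smallest p for IL-4 were named, and 3 genes of like pattern for each of 5 members. The values of 2 genes that this rule names are not reported here. Members and lists were chosen with earlier results of these data known. Alternatives covered pseudocounts of 0.1 and 5, filters, scaling, the variance model, the block, the genotype entry and each library left out. Plots used matplotlib 3.10.9 (Python 3.11.15).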

Additional observations from a re-analysis of the deposited data

Results flagged for a closer look

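The IL-4 difference of Mylip was not the same in libraries numbered 1 and 2. It was -1.44 on the log2 scale among libraries numbered 1 and -0.65 among those numbered 2, each the mean of 2 pairs. The difference of 0.79 ± 0.12 (SE; 95% interval 0.51 to 1.07) was past the threshold when the number was fitted as a group with its own IL-4 term (limma, adjusted p = 0.0398 over all genes; 0.969% of genes called). This is the fit by the genotype entry, and its comparison was added after the data were seen. The 2 libraries of each group in it carry different titled genotypes, so the SE is the spread between those. Control libraries were nearly level, at 20.4 to 21.8 FPKM, and the IL-4 libraries parted, at 6.80 and 7.05 FPKM against 12.7 and 14.5 FPKM. Apoc2 differed by 0.85 and Abca1 by 1.05 in the same direction without passing (adjusted p = 0.0803 and 0.257). The labels do not say what the number marks, and under their genotype entry it cannot be told apart from genotype.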

How the results depend on the processing

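With groups from the titles, the number of members called was 1 for IL-4 averaged over genotypes and 0 in every other comparison. Without a filter on low values it was 0 for IL-4 averaged. With the replicate block it was 4 for IL-4 averaged and 1 in each genotype, and the block changed no other count of members called. Leaving out 1 library, with or without the block, gave 0 to 5 members for IL-4 averaged, 0 to 1 in Ern1f/f and 0 to 2 in Ern1f/fLyz2-Cre. With the genotype entry, 6 members were called for IL-4 averaged, 5 in Ern1f/f, 3 in Ern1f/fLyz2-Cre, and for genotype 4 (control cells), 7 (IL-4-treated cells) and 7 (averaged), with 1 for the interaction. Apoe then reversed for genotype, to -1.91 in control cells, -2.31 with IL-4 and -2.11 averaged; under that entry genotype is the replicate number. The cause of the other shifts was not tested.

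Over 63 differences and 1667 values under alternatives, 1419 kept their direction and side of the threshold, 60 passed it, 9 (all for Apoc2) lost it, 176 changed sign without being called and 3 reversed. Apoc2 with IL-4 lay between -2.02 and -1.57 under 26 alternatives and was called in 17. Over all genes, 92 were called for IL-4 averaged, 1393 with the block and 2919 with the genotype entry. Depth limits Apoc1 and Apoc4 most.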
